A study of Mus musculus with 24 samples.

Results

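The 39 small subunit biogenesis factors described here are genes whose proteins build the precursor of the small ribosomal subunit. The rule that chose them lists genes by name and sets no threshold on a measured value, but it was written with earlier results of these data known. All 39 of them are rows of the deposited table of 54242 gene symbols. RNA-seq was measured in 24 libraries of CGR8 mouse embryonic stem cells (ESCs), 3 in each of 8 groups. Cells received a pool of control siRNAs (si-CTL) or of siRNAs against Rsl24d1 (si-Rsl24d1), without or with a rescue in which doxycycline induced an ectopic RSL24D1. The 4 day 0 groups were kept in serum with LIF, and the 4 day 4 groups were treated with 10 nM retinoic acid (RA) for 4 days. RSL24D1 belongs to precursors of the large subunit, so the comparisons ask whether messengers for building the small subunit moved when a large subunit factor was depleted, and whether they differed after 4 days of RA. Per the labels the cells without doxycycline carried an empty vector, whereas the study's methods describe 1 puromycin-selected CGR8-RESCUE line induced by doxycycline. The labels give a poly-A kit, DMEM and both 48 h and 72 h, and the methods give total RNA libraries, GMEM and 72 h. The design text has LIF together with RA. The values do not settle these conflicts. The series' design text calls the libraries of a group independent triplicates, and p-values measure the spread between them.

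The small subunit is assembled in the nucleolus on the nascent ribosomal RNA precursor, in a large particle called the small subunit processome. The UTP-A complex binds the precursor first, the UTP-B complex and the U3 box C/D snoRNP follow, the Mpp10 module and many single factors join, and cleavages then release a pre-40S particle that matures in the cytoplasm. Proliferating stem cells are known for a high output of this pathway.

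The deposited unit is log2(TPM + 1), where TPM is the abundance of a gene's transcripts per length in a library scaled to a sum of 1000000, so levels can be compared between genes, but the number of reads is unknown. Changes were tested with limma over the 16447 genes with a mean of at least 0.5, and a gene was called where the Benjamini-Hochberg adjusted p was below 0.01. With 3 libraries on each side, 0.1 is the smallest p an exact permutation test can give. A change over 1.8-fold (0.848 on this log2 scale) is given separately. All 39 factors passed the filter. Correlations within a group were 0.9847 to 0.9912. Of the libraries, 2 stood apart from their groups as deposited in the mean of the 39 factors, replicate 3 of day 0 si-Rsl24d1 with rescue (6.33, against 6.18 and 6.19) and replicate 1 of day 4 si-Rsl24d1 without rescue (5.82, against 5.96 and 5.96). After the median of ratios scaling described below, these 2 libraries stood at 6.33 (against 6.29 and 6.29) and 5.83 (against 5.83 and 5.85). Results that rest on them are also given without them. In bulk samples, fewer cells of a type and less RNA per cell cannot be told apart.

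Rsl24d1, the target, had log2(TPM + 1) values of 7.22, 7.14 and 7.10 in day 0 si-CTL libraries and 5.23, 5.28 and 5.07 in day 0 si-Rsl24d1 libraries, so the target was changed by -1.95 (limma, standard error 0.07, adjusted p = 3.2e-14). With rescue it stood at 7.31, 7.24 and 7.21 in si-CTL and at 6.70, 6.60 and 6.94 in si-Rsl24d1 cells. At day 4 without rescue the change of the target was -0.04 as deposited, with a 95% interval of -0.19 to 0.11. After median of ratios scaling, which centres the libraries on the genes detected in all of them, it stood at 6.68, 6.77 and 6.66 in si-CTL and at 6.50, 6.47 and 6.54 in si-Rsl24d1 cells. The groups did not overlap on that scale, and the change was -0.20 (95% interval -0.30 to -0.10, limma adjusted p = 0.0032). Whether the target was lower at day 4 thus depended on the scale.

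In day 0 si-CTL cells the factors differed widely in level. The 3 listed proteins of the box C/D snoRNP core, which guides ribose methylation and U3 function, led the order. Nop58 stood at 9.26, 9.29 and 9.26, a mean of 615 TPM. Nop56 followed with 460 TPM and the methyltransferase Fbl with 416 TPM. The next factor over all 24 libraries, Emg1, a pseudouridine methyltransferase, had 212 TPM, and the remaining 35 ranged from 22.2 to 208 TPM. Riok1, an atypical kinase that acts on late pre-40S particles, was the lowest over all libraries (4.50) and stood at 4.67, 4.51 and 4.60 in day 0 si-CTL cells, beside Utp23 at 4.43, 4.62 and 4.55. Over all libraries the order below Tsr1 was dense, with gaps of 0.00 to 0.33 between neighbours against a standard deviation within groups of 0.03 to 0.16.

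Related and overlapping sequences bear on some of these levels. Of the 31-base words of the longest coding transcript, 75.15% of Fbl, 38.22% of Nop56 and 17.0% of Imp3 recur in transcripts of other annotated genes, and for the other 36 factors the share is at most 8.07%. Reads of Fbl, Nop56 and Imp3 could therefore have been split with such copies, and their values are uncertain to that degree. Utp14b, a retrogene relative of Utp14a, stood at 2.46, 2.19 and 2.09 in day 0 si-CTL cells. Fbll1, a relative of Fbl, stood at 0.05, 0.17 and 0.20, and Riok3, the third RIO kinase, at 7.22, 6.89 and 6.94. Of the 11 factors with values in each library, Heatr1 overlaps Lgals8, Tbl3 overlaps Noxo1 and Riok1 overlaps Cage1 on the opposite strand. The study's methods name a stranded total RNA kit, but whether reads were counted by strand is not given in the sources used here. snoRNA genes lie within 4 of the 39 factors on the same strand, 5 in Nop56, 4 in Nop58, 3 in Wdr43 and 2 in Tsr1. Among all tested coding genes, 210 of 13587 (1.55%) hold one.

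**Figure D1:**
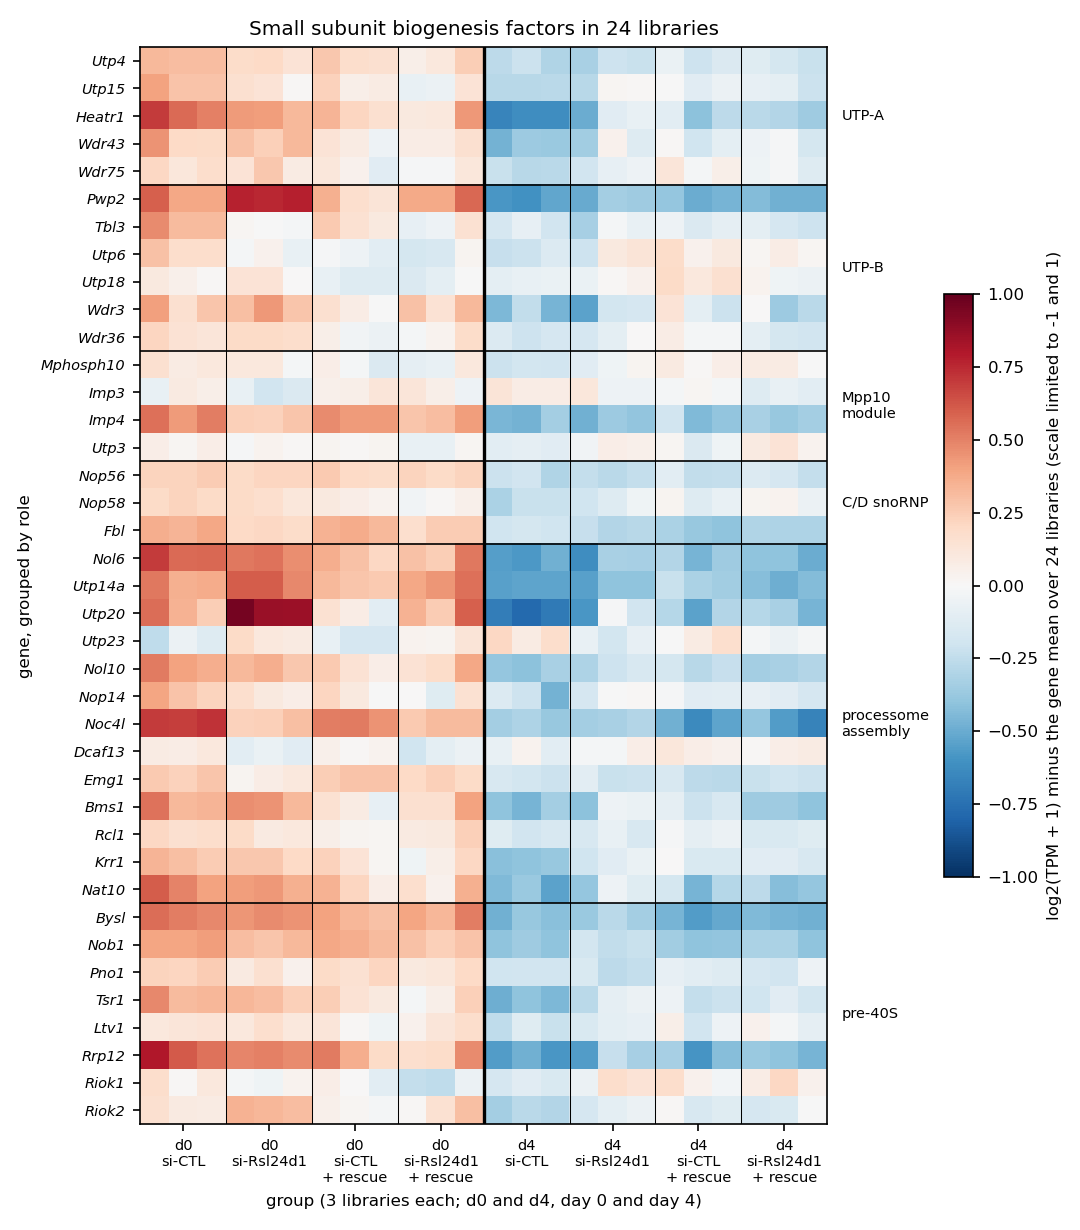
Level of each of the 39 factors (rows, by role) in each of the 24 libraries (columns, 3 per group), as log2(TPM + 1) minus the gene's mean over all libraries. The columns right of the thick line, day 4, are mostly blue (below the mean), with Utp23, Imp3, Utp18 and Riok1 among the rows that are not.

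Most of these messengers were lower at day 4. RA, the days in culture and, per the study's methods, the absence of LIF cannot be told apart. In si-CTL cells without rescue, 36 of the 39 factors were lower at day 4 and 1 was higher, and 10 fell by more than 1.8-fold. Of all genes tested, 36.7% were lower, 24.1% were higher and 8.24% were lower past the fold. The median change of the factors was -0.57, against -0.10 for all genes tested. Every complex took part. The 5 listed members of UTP-A, the 3 listed of the box C/D snoRNP and the 8 listed pre-40S factors were lower without exception. So were 5 of 6 in UTP-B, 3 of 4 in the Mpp10 module and 12 of 13 processome assembly factors. The role medians lay between -0.23 in the Mpp10 module and -0.80 in the assembly factors.

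Heatr1, the large HEAT-repeat subunit of UTP-A that also promotes transcription by RNA polymerase I, fell most. It stood at 6.20, 6.07 and 6.01 in day 0 si-CTL cells and at 4.84, 4.88 and 4.88 at day 4 (chromosome 13, 12395027 to 12440289 of GRCm38). The change was -1.23 (standard error 0.10, adjusted p = 1.8e-09), from 67.3 ± 4.56 to 28.1 ± 0.468 TPM (SD, n = 3). The groups were far apart, and the day 4 libraries were close to each other.

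Rrp12, which takes part in export of pre-40S particles, went from 5.80, 5.61 and 5.54 to 4.44, 4.52 and 4.42 (chromosome 19, 41862851 to 41896173), a change of -1.19 (standard error 0.10, adjusted p = 1.5e-09). Nol6, a scaffold protein of the processome, went from 6.17, 6.04 and 6.05 to 4.92, 4.90 and 4.99 (chromosome 4, 41114427 to 41124455), a change of -1.15 (standard error 0.08, adjusted p = 8.7e-11). In both genes no day 4 library came near a day 0 library. As deposited, the other 7 that passed the fold were Utp20 (-1.11), Noc4l (-1.05), Pwp2 (-1.03), the RNA acetyltransferase Nat10 (-0.96), Utp14a (-0.95), the pre-40S factor Bysl (-0.94) and Imp4 (-0.92). Only 6 of the 10 passed it after median of ratios scaling, and Nat10 (-0.82), Utp14a (-0.81), Bysl (-0.81) and Imp4 (-0.78) no longer did.

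The Mpp10 module was the least uniform. Imp4 fell by 0.92, whereas Mphosph10, the protein that names the module, fell by 0.31 and Utp3 by 0.15. Imp3 stood at 6.49, 6.66 and 6.63 at day 0 and at 6.70, 6.64 and 6.64 at day 4, a change of 0.07 that did not pass the test. Members of 1 module thus ranged from a clear fall to no change past the test. In UTP-B, Utp18 (-0.13) did not pass. The factor that rose was Utp23, a protein that binds the precursor and the snoRNA U17 (snR30 in yeast), from 4.43, 4.62 and 4.55 to 4.89, 4.76 and 4.86, a change of 0.30 (standard error 0.06, adjusted p = 8.2e-05; chromosome 15, 51877429 to 51884614). Its day 4 libraries all lay above its day 0 libraries.

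**Figure D2:**
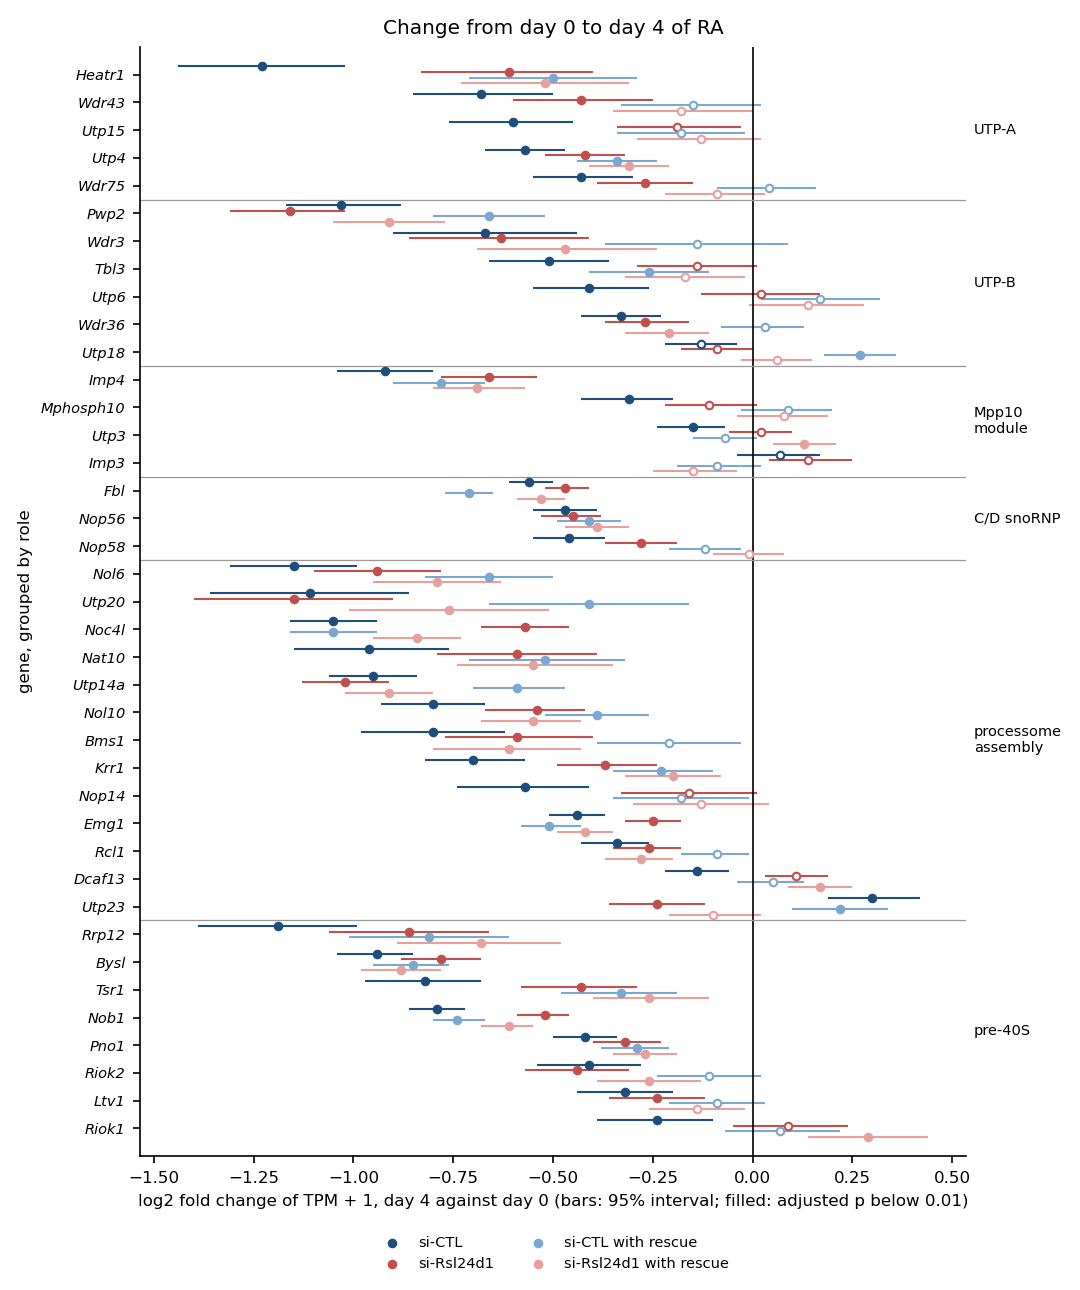
Change of each factor from day 0 to day 4 on the log2(TPM + 1) scale in si-CTL and si-Rsl24d1 cells, without and with rescue. Points are estimates from limma, bars are 95% intervals, and filled points passed an adjusted p of 0.01. In si-CTL cells 36 factors lie to the left and pass, from Heatr1 at -1.23 on, and Utp23 lies to the right at 0.30.

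The fall was seen in each of the 4 day comparisons, which share no library. In si-Rsl24d1 cells 29 factors were lower and 0 higher (background 26.4% lower and 29.4% higher), with a median of -0.42 and 5 past the fold (background 6.22%). By limma, 33 of the 39 had an unadjusted p below 0.05 there, as did 67.9% of all genes. In rescued si-CTL cells 20 were lower and 2 higher (background 22.4% and 36.8%), with a median of -0.23 and 2 past the fold (background 4.82%). In rescued si-Rsl24d1 cells 24 were lower and 3 higher (background 25.8% and 32.4%), with a median of -0.27 and 3 past the fold (background 5.57%). In all 4 comparisons 29 factors had a change below 0 (background 29.3%), and 19 passed the test as lower in each (background 14.8%): Bysl, Emg1, Fbl, Heatr1, Imp4, Krr1, Nat10, Nob1, Noc4l, Nol10, Nol6, Nop56, Pno1, Pwp2, Rrp12, Tsr1, Utp14a, Utp20 and Utp4. They come from every role.

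The factors that rose differed between comparisons. Utp18 (0.27) and Utp23 (0.22) rose in rescued si-CTL cells. Riok1 (0.29), Dcaf13 (0.17), a substrate receptor homolog of the processome protein Sof1, and Utp3 (0.13) rose in rescued si-Rsl24d1 cells. Riok1 had been lower in si-CTL cells (-0.24), a call that was lost after median of ratios scaling (-0.11, limma adjusted p = 0.0674). On that scale Utp18 (0.12) and Riok1 (0.22) still passed as higher in those comparisons, and Utp23 (0.08), Dcaf13 (0.10) and Utp3 (0.06) did not.

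The scale of the libraries touched the size of the fall. The median of all genes tested moved by -0.10, 0.02, 0.12 and 0.06 in the 4 day comparisons, in the order above. After median of ratios scaling the medians of the factors were -0.43, -0.44, -0.37 and -0.35, and 33, 33, 30 and 30 factors were lower (background 30.8%, 29%, 30.1% and 30.3%). The counts past the fold, 10, 5, 2 and 3 as deposited, were then 6, 5, 6 and 5 (background 5.79%, 6.42%, 6.36% and 6.71%). The apparent difference between si-CTL cells and the other 3 comparisons was much smaller on that scale, and 27 factors were then lower in all 4 (background 17.4%). Of the called genes, 39.7% were higher in si-CTL cells as deposited and 50% after scaling, and 62.1% against 50.8% in rescued si-CTL cells. The scaling centres each library on its median gene. A split near 50% after it, here and below, thus follows largely from the method. The mean of the 39 factors was 6.17 to 6.44 in the 12 day 0 libraries and 5.78 to 6.01 in the 12 day 4 libraries as deposited, and 6.26 to 6.34 against 5.83 to 5.92 after scaling.

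**Figure D3:**
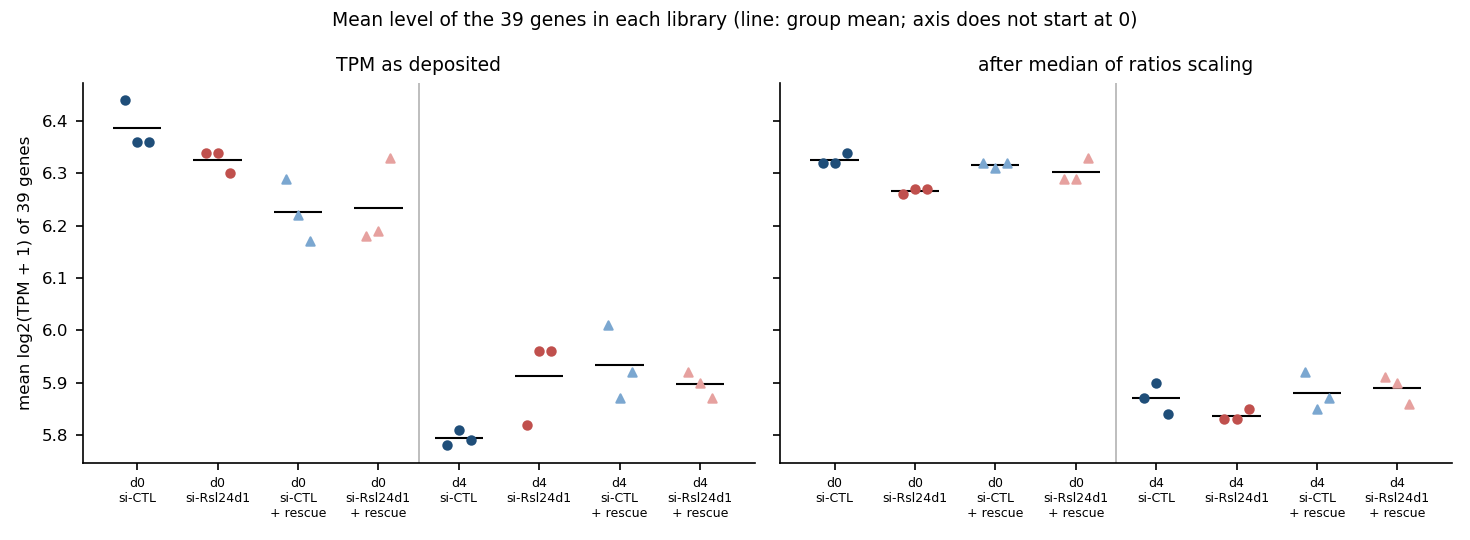
Mean log2(TPM + 1) of the 39 factors in each library, as deposited (left) and after median of ratios scaling (right), with a line at each group's mean. On both scales no day 4 library reaches a day 0 library, and after scaling the 4 day 4 groups lie between 5.83 and 5.92.

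Other genes of ribosome production were read from lists. Of all genes tested, 36.7% were lower and 24.1% higher in si-CTL cells at day 4. Of 24 other small subunit factors, 20 were lower in si-CTL cells at day 4 and 0 were higher (median -0.46), the largest falls being those of Wdr46 (-1.29) and Rbm19 (-1.23). Of 31 nucleolar large subunit factors, 28 were lower and 0 higher (median -0.59), led by the giant ATPase Mdn1 (-1.30) and Rrs1 (-1.17). Small subunit ribosomal proteins moved the other way in this comparison: 24 of 32 were higher and 2 lower (median 0.37), with Rps19 (0.64) and Rps14 (0.63) highest, and Rps13 (-0.51) and Rps2 (-0.20) lower. In the other 3 day comparisons the median of these proteins was 0.06, 0.05 and -0.00, and after median of ratios scaling 0.04, -0.10 and -0.08. A rise of the size seen in si-CTL cells without rescue was thus not seen there. In rescued si-CTL cells the sign depended on the scale. The scaling divided the si-CTL libraries without rescue by 1.02 to 1.09 at day 0 and by 0.933 to 0.965 at day 4. It thus does not reverse the rise in those cells. Ribosomal protein genes have many processed pseudogenes, so their values are uncertain. Whether the factors differ from these lists was not tested.

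Marker genes moved with the day as well, in a comparison where 24.1% of all genes tested were higher and 36.7% lower. Of 8 mesenchymal and smooth muscle markers, 8 were higher in si-CTL cells at day 4, and their summed level went from 313 to 330 TPM at day 0 to 996 to 1065 TPM. Of 6 endoderm markers tested out of 8, 5 were higher, and the sum of the 8 went from 35.6 to 43.5 TPM to 50.3 to 56.4 TPM. Of 7 neural markers tested out of 8, 1 was higher and 4 were lower, and the sum went from 97.8 to 106 TPM to 38.6 to 38.8 TPM. Among 8 pluripotency markers 6 were lower and 2 higher, Pou5f1 by -1.10 and Dppa5a by 1.03, and the sum rose from 4955 to 5113 TPM to 6853 to 7021 TPM. The mean log2(TPM + 1) of the same 8 markers fell, from 7.85 to 7.97 at day 0 to 7.56 to 7.64 at day 4. No marker was at 0 in all libraries of a group. Their part in the fall of the factors was not tested.

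Changes of the factors also followed transcript length and base composition to a degree. Over the 39 factors the change in si-CTL cells correlated with log2 transcript length at r = -0.49 and with GC content at r = -0.36, against -0.17 and -0.05 over 16123 genes. In rescued cells the correlations with GC content were -0.66 for si-CTL and -0.55 for si-Rsl24d1, against -0.18 and -0.21 over all genes. These are correlations across genes of the same libraries, and genes are not independent replicates. With the length trend of each library removed, an analysis chosen after these correlations were seen, 34, 33, 30 and 31 factors were lower in the 4 day comparisons (background 32.4%, 31.1%, 31.9% and 31.8%).

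Depletion of Rsl24d1 at day 0 gave smaller and mixed changes. Of the 39 factors 4 were higher (background 14.3%) and 6 lower (background 16.1%), with a median of -0.08 against -0.01 for all genes. None passed the fold, as 4.18% of all genes did, and 18 had an unadjusted p below 0.05, against 47.6% of all genes. As deposited, the shares of factors called were near or below the background. The higher factors were Utp20, Pwp2, Utp23 and Riok2, and the lower ones Noc4l, Tbl3, Imp4, Dcaf13, Emg1 and Fbl. Emg1 (-0.18) no longer passed after median of ratios scaling (limma adjusted p = 0.0156). On that scale Utp4 (-0.14), Utp15 (-0.22), Utp6 (-0.23) and Nol10 (-0.11) also passed as lower, and Utp14a (0.15) as higher. Of the 16447 genes tested, 2909 were then lower and 2593 higher.

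Utp20, a very large HEAT-repeat scaffold of the processome, rose most (chromosome 10, 88746607 to 88826804). It stood at 5.82, 5.61 and 5.51 in si-CTL and at 6.22, 6.13 and 6.12 in si-Rsl24d1 cells, a change of 0.51 (standard error 0.12, adjusted p = 0.0019). The groups did not overlap, but without replicate 3 of si-CTL the change was 0.44 and no longer passed (adjusted p = 0.013 from limma). Pwp2, a core subunit of UTP-B, went from 5.43, 5.22 and 5.22 to 5.60, 5.59 and 5.61 (chromosome 10, 78170909 to 78185149), a change of 0.31 (standard error 0.07, adjusted p = 0.0011). Utp23 went from 4.43, 4.62 and 4.55 to 4.87, 4.79 and 4.77, a change of 0.28 (standard error 0.06, adjusted p = 4.6e-04). In each of the 3 genes every si-Rsl24d1 library lay above every si-CTL library.

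Noc4l, which pairs with Nop14 in the processome, fell most. It stood at 6.39, 6.38 and 6.41 in si-CTL and at 5.92, 5.93 and 5.99 in si-Rsl24d1 cells (chromosome 5, 110648418 to 110653417), a change of -0.45 (standard error 0.05, adjusted p = 8.6e-07), or 83.1 ± 0.802 against 60.7 ± 1.48 TPM (SD, n = 3). No library of one group came near the other group. Tbl3, another subunit of UTP-B, went from 6.29, 6.14 and 6.14 to 5.84, 5.82 and 5.80 (chromosome 17, 24697949 to 24707660), a change of -0.37 (standard error 0.07, adjusted p = 3.1e-04). Imp4 went from 6.40, 6.28 and 6.36 to 6.09, 6.08 and 6.13 (chromosome 1, 34439851 to 34449356), a change of -0.25 (standard error 0.06, adjusted p = 0.0012). Pwp2 and Tbl3, partners in the same complex, thus moved in opposite directions.

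Since the rescue groups share no library with these, the same siRNA comparison there is a separate measurement. With rescue 3 factors were lower, Noc4l (-0.20), Dcaf13 (-0.15) and Fbl (-0.12), and 0 were higher (background 5.64% and 8.1%), while 13 had an unadjusted p below 0.05 in limma, against 32.8% of all genes. All 10 factors called without rescue kept their sign, and all 10 changes were smaller in size, with Utp20 at 0.36, Pwp2 at 0.23 and Tbl3 at -0.16. These 10 were picked because they passed without rescue. Smaller values in other libraries can follow from that choice alone, so they do not show an effect of the rescue. The difference between the rescue states passed the test in 0 of the 39 factors (background 2.09%), and in 5 at an unadjusted p below 0.05 in limma (background 17.6%). Median of ratios scaling gave 7 called factors with rescue, 3 higher (background 9.24%) and 4 lower (background 8.29%), and Fbl was not among them (limma adjusted p = 0.0194). Of the 6 libraries with rescue, leaving out replicate 2 of si-CTL or replicate 1 of si-Rsl24d1 gave 0 called factors, leaving out replicate 1 or replicate 3 of si-CTL or replicate 2 of si-Rsl24d1 gave 1, and leaving out replicate 3 of si-Rsl24d1 gave 2. The shares of all genes called in these fits are not given here.

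**Figure D4:**
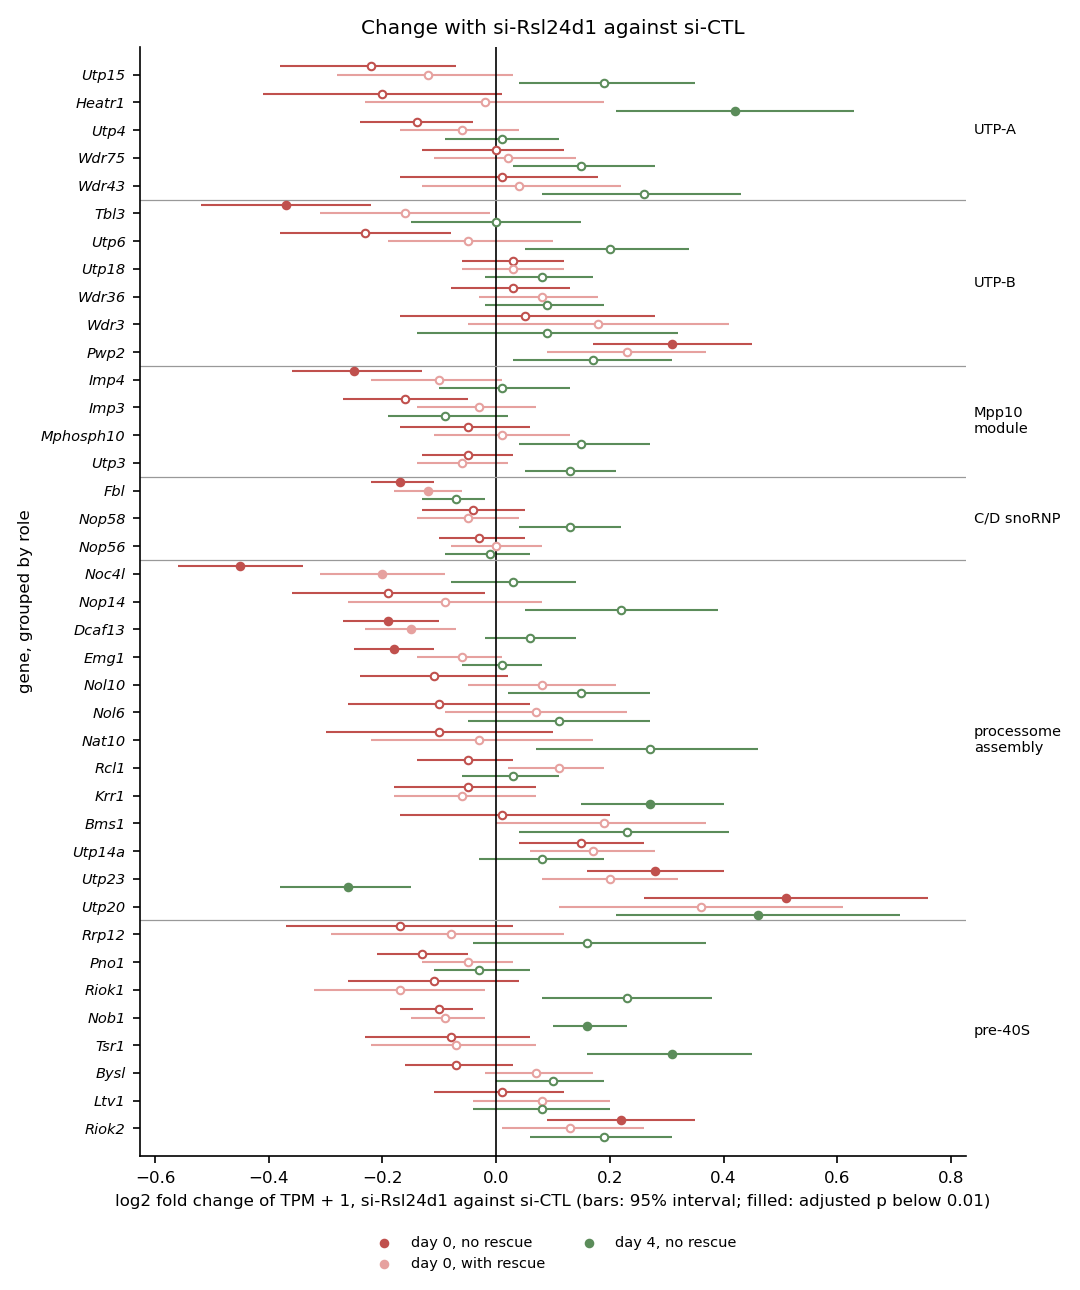
Change of each factor between si-Rsl24d1 and si-CTL cells at day 0 without rescue, at day 0 with rescue and at day 4 without rescue, on the log2(TPM + 1) scale. Points are estimates from limma, bars are 95% intervals, and filled points passed an adjusted p of 0.01. Noc4l at -0.45 and Utp20 at 0.51 mark the range at day 0, and at day 4 Heatr1, Utp20, Tsr1, Krr1 and Nob1 lie to the right and Utp23 to the left.

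The rescue itself gave few called changes. In si-Rsl24d1 cells Emg1 was higher with rescue (0.14; background 3.06%), and Utp20 (-0.49), Pwp2 (-0.32) and Utp18 (-0.17) were lower (background 12.2%). Without replicate 3 of the rescued group 10 factors passed, 2 higher and 8 lower, without replicate 1 or replicate 2 of it 0 did, and without replicate 1 or replicate 2 of the unrescued group 1 did. Shares of all genes called without these libraries are not given here, so these counts have no background. The median of the factors was -0.09, against -0.11 for all genes, and 0.04 after median of ratios scaling, when 4 were higher (background 8.03%) and 2 lower (background 7.42%). On that scale Utp20 was at -0.36 and Pwp2 at -0.19, and Utp18 (-0.04) lost its call. With the length trend removed Utp20 was at -0.23. In si-CTL cells 0 of 39 passed in limma (background 0.0122%) and 25 had an unadjusted p below 0.05 (background 41%), with a median of -0.17 against -0.12 for all genes and -0.02 after scaling. The change correlated with log2 transcript length over the factors at r = -0.67 for si-Rsl24d1 and r = -0.70 for si-CTL, against -0.24 and -0.37 over all genes. The part of length in these changes was not tested.

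Markers also moved with the siRNA at day 0. Without rescue 14.3% of all genes tested were higher and 16.1% lower, which is the background for the counts in this paragraph as deposited. Of 8 pluripotency markers 7 were lower in si-Rsl24d1 cells without rescue and 0 higher, Esrrb by -1.09 and Zfp42 by -0.96, and their summed level was 3957 to 4005 TPM against 4955 to 5113 TPM. Of 7 neural markers tested 3 were higher and 1 lower, among them Neurod1 (2.59), with sums of 124 to 129 TPM against 97.8 to 106 TPM. Of 8 mesenchymal markers 3 were higher and 3 lower, and of 6 endoderm markers tested 0 passed. Their part in the changes of the factors was not tested. In the other ribosome lists, 1 of 24 small subunit factors was higher, Nol11 (0.27), and 6 were lower, led by the methyltransferases Bud23 (-0.38) and Dimt1 (-0.33). Of 31 large subunit factors 3 were higher, among them Brix1 (0.38) and Mak16 (0.34), and 7 lower, among them Senp3 (-0.48) and Gtpbp4 (-0.39). Of 32 small subunit ribosomal proteins 6 were higher, among them Rps28 (0.35) and Rps27a (0.23), and Rps13 was lower (-0.36), while after median of ratios scaling 0 passed in limma and the median was 0.16.

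At day 4 without rescue 5 factors were higher in si-Rsl24d1 than in si-CTL cells (background 24.9%) and 1 was lower (background 6.04%). Utp20 (0.46), Heatr1 (0.42), Tsr1 (0.31), a GTPase-like pre-40S factor, Krr1 (0.27) and Nob1 (0.16), the endonuclease that makes the last cut of the small subunit RNA, were higher. Utp23 was lower, at 4.61, 4.50 and 4.60 against 4.89, 4.76 and 4.86, a change of -0.26 (standard error 0.06, adjusted p = 0.001). The median of the factors was 0.13, equal to that of all genes. After median of ratios scaling it was -0.03, with 2 factors higher (background 14.7%), Utp20 (0.31) and Heatr1 (0.26), and 6 lower (background 14.5%). Tsr1 (0.15), Krr1 (0.12) and Nob1 (0.01) did not pass on that scale, and of all called genes 80.5% were higher as deposited and 50.2% after scaling. Without replicate 1 of si-Rsl24d1 15 factors passed, and without replicate 2 or replicate 3 of that group 3 did. For these counts the share of all genes called is not given here, so they have no background. Over the factors the change correlated with log2 transcript length at r = 0.56, against 0.34 over all genes, and with the length trend removed Utp20 (0.10) and Heatr1 (0.10) no longer passed while Utp23 (-0.40) did. Mesenchymal markers were higher too, 7 of 8, with sums of 1869 to 2129 against 996 to 1065 TPM, as were 6 of 6 endoderm markers tested, with sums of 82 to 109 against 50.3 to 56.4 TPM. The part of these markers was not tested. With rescue, 1 factor was lower at day 4, Utp18 (-0.18), and 0 were higher (background 5.87% in either direction). That call was lost without replicate 2 or replicate 3 of si-CTL and without any 1 of the si-Rsl24d1 libraries.

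The siRNA effect on the target itself was -1.95 at day 0 and -0.04 at day 4 as deposited, a difference of 1.91 (limma adjusted p = 2.7e-11). The depletion was thus not alike on the days compared. The siRNA effect differed between the days for 13 factors, 12 with a more positive value at day 4 (background 22.1%) and 1 with a more negative one (background 8.83%). The median difference was 0.19, against 0.14 for all genes, and 0.03 after median of ratios scaling, when 5 were more positive (background 15.3%) and 3 more negative (background 13.2%). Of all called genes 71.4% were more positive as deposited and 53.7% after scaling. Heatr1 had a difference of 0.61 (standard error 0.14, adjusted p = 0.0018), the largest in size as deposited, which was 0.46 after scaling and 0.33 with the length trend removed. Its siRNA effect was -0.20 at day 0, with 5.93, 5.92 and 5.83 in si-Rsl24d1 cells, and 0.42 at day 4, with 5.01, 5.39 and 5.43. The day 4 values of si-Rsl24d1 cells were wide apart, and those of si-CTL cells were not.

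Utp23 went the other way, with a difference of -0.54 (standard error 0.08, adjusted p = 2.2e-05). Its rise of 0.28 at day 0 became a fall of 0.26 at day 4. After median of ratios scaling the difference was -0.70, and with the length trend removed it was -0.68. In si-CTL cells Utp23 thus rose from day 0 to day 4, and in si-Rsl24d1 cells it fell, from 4.87, 4.79 and 4.77 to 4.61, 4.50 and 4.60 (-0.24, adjusted p = 9.0e-04). Among the other factors the differences that passed were Noc4l (0.48), Utp6 (0.43), Utp15 (0.42), Nop14 (0.41), Tsr1 (0.39), Tbl3 (0.37), Riok1 (0.34), Krr1 (0.33), Nob1 (0.27), Dcaf13 (0.25) and Emg1 (0.19). After scaling Noc4l, Utp6, Utp15 and Tsr1 of these still passed. The count of 13 became 7 without replicate 1 of day 0 si-CTL, replicate 3 of day 0 si-Rsl24d1, or replicate 2 or replicate 3 of day 4 si-Rsl24d1. The shares of all genes called without these libraries are not given here.

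**Figure D5:**
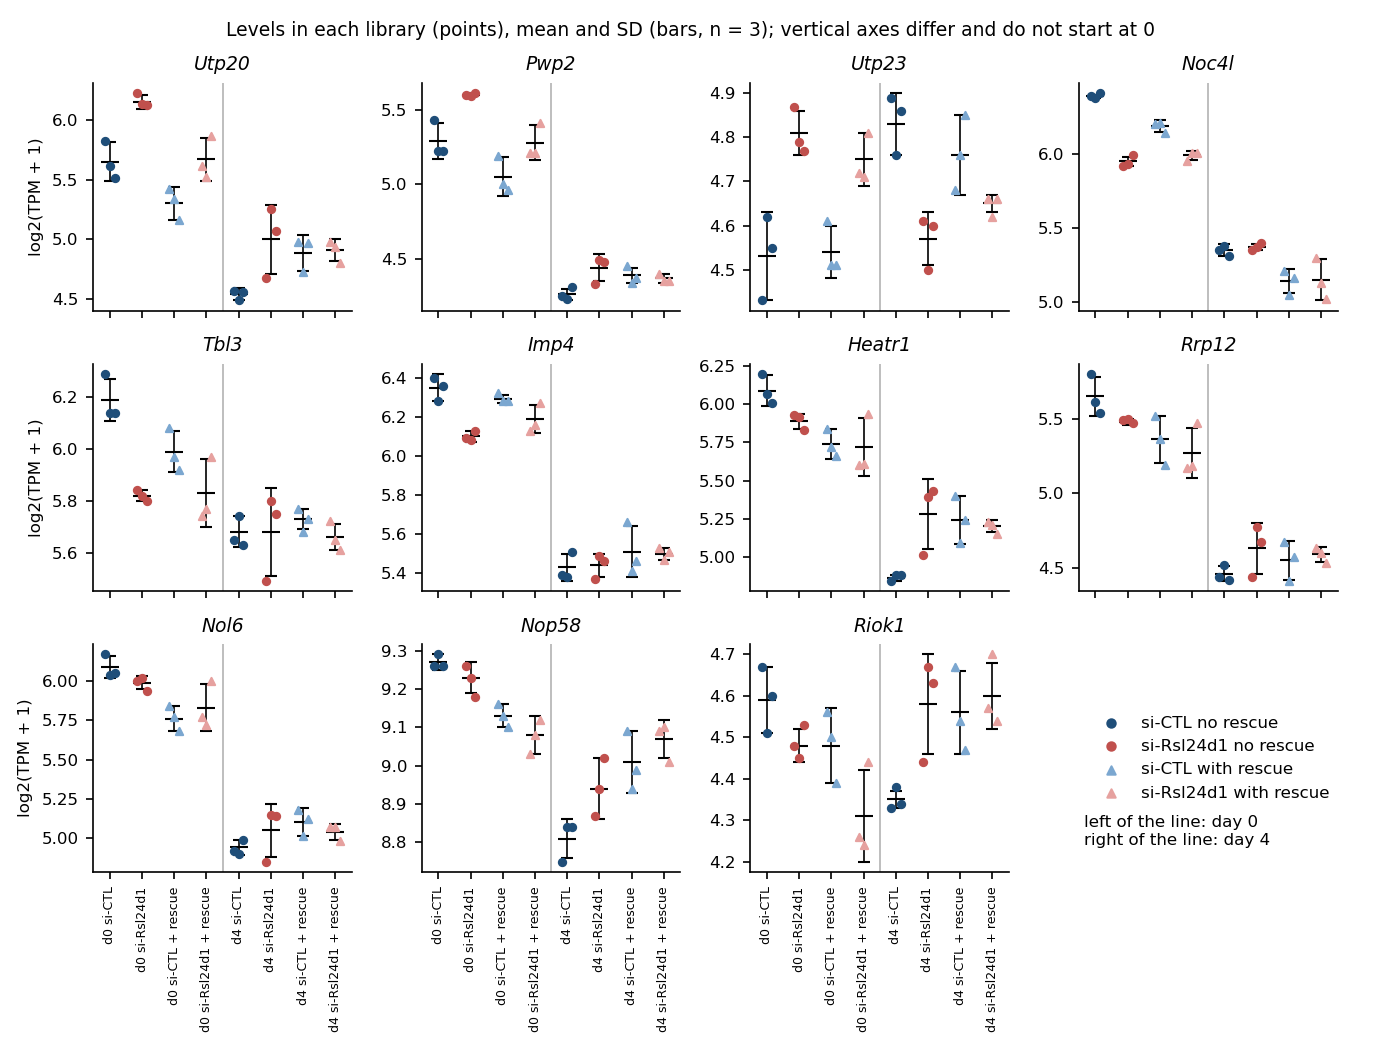
Level of the 11 factors with values given for each library, with points for the 3 libraries of each group and bars for the mean and SD. Utp20 and Pwp2 stand highest in day 0 si-Rsl24d1 cells, Noc4l and Tbl3 highest in day 0 si-CTL cells, and Utp23 reverses its order of siRNA groups between day 0 and day 4.

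The promoters of the factors that moved apart can be set side by side. RefSeq windows on GRCm38.p6, from 250 bases before to 50 bases after the annotated start, were matched for 31 of the 39 factors, all except Dcaf13, Fbl, Nol6, Rrp12, Tbl3, Utp23, Utp6 and Wdr36. The windows are shown for Utp20 and Pwp2, which rose with si-Rsl24d1 at day 0, for Imp4, which fell, and for Heatr1, which was lowered most at day 4. The Heatr1 window begins at 12395125, inside the gene span given above, which begins at 12395027. By that span it holds no base before the start of Heatr1. Capitals mark letters of the 5 motifs searched on either strand, and each window is read 5′ to 3′ along its gene. The window of Noc4l, which fell most with si-Rsl24d1 at day 0, and that of Riok1 hold none of the 5 motifs and are not shown. A motif in every window shown is therefore not a trait of all the factors that moved.
Utp20, chr10:88826765-88827064, minus strand: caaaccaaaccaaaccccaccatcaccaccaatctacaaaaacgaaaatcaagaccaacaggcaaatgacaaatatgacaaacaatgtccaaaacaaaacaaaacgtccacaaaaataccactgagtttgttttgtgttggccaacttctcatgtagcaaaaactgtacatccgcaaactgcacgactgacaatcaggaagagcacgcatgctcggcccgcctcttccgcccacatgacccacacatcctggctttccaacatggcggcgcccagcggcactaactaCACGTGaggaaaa
Pwp2, chr10:78185100-78185399, minus strand: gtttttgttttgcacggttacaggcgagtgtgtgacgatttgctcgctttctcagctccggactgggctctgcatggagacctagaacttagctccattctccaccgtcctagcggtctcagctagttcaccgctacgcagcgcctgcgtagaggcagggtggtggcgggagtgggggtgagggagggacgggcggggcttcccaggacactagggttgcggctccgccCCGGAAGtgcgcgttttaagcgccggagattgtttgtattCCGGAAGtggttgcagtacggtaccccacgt
Imp4, chr1:34439579-34439878, plus strand: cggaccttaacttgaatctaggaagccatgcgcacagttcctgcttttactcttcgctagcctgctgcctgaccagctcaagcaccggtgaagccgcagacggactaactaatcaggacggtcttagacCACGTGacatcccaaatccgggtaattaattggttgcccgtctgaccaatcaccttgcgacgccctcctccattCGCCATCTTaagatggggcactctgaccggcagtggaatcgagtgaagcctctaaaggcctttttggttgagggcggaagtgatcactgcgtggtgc
Heatr1, chr13:12395125-12395424, plus strand: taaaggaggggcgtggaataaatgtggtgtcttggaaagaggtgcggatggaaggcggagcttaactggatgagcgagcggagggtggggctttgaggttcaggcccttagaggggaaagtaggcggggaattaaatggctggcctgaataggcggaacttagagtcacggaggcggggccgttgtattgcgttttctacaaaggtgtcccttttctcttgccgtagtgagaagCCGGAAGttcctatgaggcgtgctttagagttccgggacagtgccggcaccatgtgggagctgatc
The Utp20 window holds the E-box CACGTG, the element read by Myc and related factors, and the Imp4 window holds it too, beside the part AAGATGGCG of the YY1 motif on the other strand. The Pwp2 window holds the ETS core CCGGAAG at 2 places and the Heatr1 window holds it at 1. The E-box was in the window of a factor that rose and of one that fell in the same comparison. Its part in these changes was not tested.

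Over the 31 windows the E-box was found in 8 (25.8%), against 1246 of 10704 (11.6%) tested coding genes with a window. The ETS core was found in 12 (38.7%), against 19.4%. The part TCTCGCGA was found in 3 (9.7%, against 2.4%), the part GCATGCGC of the NRF1 motif in 2 (6.5%, against 5.9%) and the YY1 part in 1 (3.2%, against 3.4%). None of these motifs contains another. The shares are descriptions with no test, and a match is not a binding site.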

How the data were processed

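RNA-seq was deposited as 1 table of log2(TPM + 1) values for 24 libraries, which the authors made from reads per transcript summed to genes. Per the labels STAR 2.7.8a, Salmon 1.4.0 and the build GRCh38 were used, whereas the study's methods give the mouse build GRCm38 and other versions. The deposited values sum to 1000000 TPM per library, so depth is unknown and no count test was run. Values were compared as deposited with limma 3.58.1 in R 4.3.3, with 8 group means, a variance trend and Benjamini-Hochberg adjustment over 16447 genes with a mean of at least 0.5. This step was tested on simulated data with noise independent between genes and no shift of scale or length trend between libraries. The simulation thus does not bear on calls that depend on scale or length. All 24 columns were mapped by their labels. The replicate numbers were not used as a block. Gene positions come from a GENCODE annotation of GRCm38.

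The members and lists were chosen with earlier results of these data known. Values in every library are given for the 3 largest rises and falls among called factors in the day 0 siRNA comparison and the si-CTL day comparison, the 2 largest differences between days, and the highest and lowest factor, and for the target and related genes. Of other lists at most 2 genes per direction are named. The alternatives were another added constant or filter, scaling, only the groups compared, no trend, a replicate block, another threshold and leaving out each library.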

Additional observations from a re-analysis of the deposited data

Results flagged for a closer look

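The siRNA effect differed between day 0 and day 4 without rescue, by the limma test of the difference, in 13 factors (12 more positive, against 22.1% of all genes, and 1 more negative, against 8.83%). The target Rsl24d1 was changed by -1.95 at day 0 and by -0.04 at day 4 as deposited (-0.20 after median of ratios scaling). The depletion was thus not alike on the days compared. On the log2(TPM + 1) scale the effect at day 4 minus that at day 0 was 0.61 for Heatr1, 0.48 for Noc4l, 0.43 for Utp6, 0.42 for Utp15, 0.41 for Nop14, 0.39 for Tsr1, 0.37 for Tbl3, 0.34 for Riok1, 0.33 for Krr1, 0.27 for Nob1, 0.25 for Dcaf13 and 0.19 for Emg1. It was -0.54 for Utp23, the factor whose effect also changed sign with both effects past the test. After median of ratios scaling 6 of the 13 still passed, and Nop14, Tbl3, Riok1, Krr1, Nob1, Dcaf13 and Emg1 did not.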

How the results depend on the processing

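The counts of the 4 day comparisons (37, 29, 22 and 27) stayed within 1.5 times, and their medians below 0, in every alternative. Other counts moved, and the cause was not tested. Where no share over all genes is given in this section, a count shows only how a result depends on the processing. The day 0 siRNA count without rescue (10) was 17 with the length trend removed, an alternative chosen after seeing the data, and 17 at an adjusted p below 0.05. With that trend removed, 2818 of 16123 genes were higher and 3259 lower in the same comparison. Of the factors called with it removed, Utp20, Pwp2, Utp23, Riok2 and Utp14a were higher and all the others were lower. With rescue (3) the day 0 siRNA count was 1 with no filter, 7 after median of ratios scaling, 10 with the length trend removed, 0 with only the groups compared, 0 with no trend and 7 at 0.05. The rescue count in si-Rsl24d1 cells (4) was 2 with no filter, 0 with only the groups compared, 2 with no trend and 9 at 0.05, and that in si-CTL cells (0) was 18 at 0.05. The day 4 siRNA count (6) was 0 with only the groups compared and 20 at 0.05. With rescue (1) it was 0 with 0.1 added, no filter, only the groups compared or no trend, 2 after scaling, 4 with the length trend removed and 3 at 0.05. The difference between days (13) was 8 after scaling and 7 with only the groups compared. Utp23 at day 0 had an adjusted p of 0.0121 in limma with only the groups compared.

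Leaving out each library gave 8 to 12 (day 0 siRNA), 0 to 2 (with rescue), 0 to 10 (rescue in si-Rsl24d1 cells), 0 to 0 (in si-CTL cells), 3 to 15 (day 4 siRNA), 0 to 1 (with rescue), 35 to 37, 29 to 29, 19 to 23 and 24 to 26 (day comparisons), 7 to 18 (difference between days) and 0 to 0 (between rescue states).

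With a replicate block the counts were 10, 1, 2, 0, 6 and 0 for the siRNA and rescue comparisons in the order of the first paragraph, 37, 29, 22 and 27 for the day comparisons, and 11 and 0 for the differences. Libraries with the same number had a mean correlation of deviations of -0.017 over 84 pairs, against 0.009 over 168 other pairs, so the numbers did not pair them. Depth is unknown and limits the low factors in a way that could not be computed.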

Other observations

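Myc and Mycn, which encode transcription factors that bind the E-box, were looked up after the values of the factors were seen. Myc stood at 5.27, 5.18 and 5.23 in day 0 si-CTL libraries and at 2.43, 2.37 and 2.31 at day 4, a change of -2.86 (adjusted p = 4.5e-17 from limma). It stood at 4.66, 4.74 and 4.66 in day 0 si-Rsl24d1 libraries and at 3.16, 3.39 and 3.36 at day 4, a change of -1.39. Its siRNA effect was -0.54 at day 0 and 0.93 at day 4. Mycn changed by -1.69 with the day in si-CTL cells and was 0.38 higher in si-Rsl24d1 cells at day 0. Whether either has a part in the changes of the factors was not tested.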
